A study of Mus musculus with 17 samples.

Results

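The insulin-like growth factor (IGF) family was described in peritoneal tumors of AB12, a murine mesothelioma cell line, by 9 transcripts of the 55450 genes in the count table. The members were the ligands Igf1 and Igf2, the type 1 receptor Igf1r and the binding proteins Igfbp2, Igfbp3, Igfbp4, Igfbp5, Igfbp6 and Igfbp7. They were selected on gene symbol in Gencode vM21, and the set was chosen by a proposal made with earlier results of the same 17 libraries in view, so the values that chose it are the levels and changes described here. Which comparison weighed in that choice was not recorded. For this reason the levels and changes of the 9 members are given as a description, with no p-value for any single member and counts of passed thresholds as descriptions only. Other genes of the pathway are given with their tests. Their lists were also chosen with earlier results of these data known, and genes were named from them mainly for being called. Those p-values are therefore no independent evidence either.

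All mice were 8-week-old female BALB/c animals that received AB12 cells into the peritoneum, and each library came from the tumor of a separate mouse. Untreated tumors numbered 3 on d6, 5 on d10 and 3 on d14, which the study calls the early, intermediate and advanced phases. Anti CTLA-4 treated tumors, from mice given 200 µg of the blocking antibody clone 9D9 per intraperitoneal injection, were collected on d10 (n = 3) and d14 (n = 3). Mice of the treated d14 group were injected on d6 and d10, the injection days of the treated d10 group are not given in the sources used here, and no group received a control antibody according to the labels. AB12 is 1 transplanted cell line, so the tumors share their cancer cells, and the bulk RNA also held host stroma and immune cells.

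IGF1 and IGF2 are secreted peptides that signal through the receptor tyrosine kinase IGF1R, which activates PI3K-AKT and MAPK signaling and promotes growth and survival. The IGFBP proteins bind IGFs in tissue fluid and blood. They can hold the ligands away from the receptor or release them after cleavage by proteases, and IGFBP7 binds IGFs more weakly than the others. IGF2R, the mannose 6-phosphate receptor, takes IGF2 up for degradation. In many tumors stromal fibroblasts and macrophages are sources of IGF1.

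On GRCm38 the protein-coding members lie on 6 chromosomes. The ligand genes are Igf1 (chr10:87858265-87937042, plus strand) and Igf2 (chr7:142650766-142666816, minus strand), and the receptor gene Igf1r is at chr7:67952827-68233668 on the plus strand. Igfbp2 (chr1:72824503-72852474, plus strand) and Igfbp5 (chr1:72857932-72874884, minus strand) are close neighbors that point toward each other. The other binding protein genes are Igfbp3 (chr11:7206086-7213923, minus strand), Igfbp4 (chr11:99041244-99054392, plus strand), Igfbp6 (chr15:102144362-102149511, plus strand) and Igfbp7 (chr5:77349240-77408041, minus strand).

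The windows of 250 bases before the RefSeq transcription start of Igf1, Igfbp3 and Igfbp5 are shown because these are the binding protein and ligand transcripts with the largest increases described below, and because Igf1 and Igfbp5 varied together. They were read from RefSeq on GRCm38.p6, 5′ to 3′ on the strand of each gene, and lie at chr10:87860861-87861110 (plus strand), chr11:7213924-7214173 (minus strand) and chr1:72874866-72875115 (minus strand). Capitals mark matches to 5 motifs searched on both strands.
Igf1: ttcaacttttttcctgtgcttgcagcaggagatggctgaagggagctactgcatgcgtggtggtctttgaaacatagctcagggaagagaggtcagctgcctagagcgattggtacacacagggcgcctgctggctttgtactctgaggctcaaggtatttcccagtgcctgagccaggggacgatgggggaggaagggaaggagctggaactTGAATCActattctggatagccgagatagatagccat
Igfbp3: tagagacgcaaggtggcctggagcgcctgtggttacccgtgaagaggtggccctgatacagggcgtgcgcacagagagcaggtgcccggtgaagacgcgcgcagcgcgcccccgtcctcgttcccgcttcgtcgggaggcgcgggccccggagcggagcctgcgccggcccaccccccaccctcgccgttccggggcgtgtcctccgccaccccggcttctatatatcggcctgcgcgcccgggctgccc
Igfbp5: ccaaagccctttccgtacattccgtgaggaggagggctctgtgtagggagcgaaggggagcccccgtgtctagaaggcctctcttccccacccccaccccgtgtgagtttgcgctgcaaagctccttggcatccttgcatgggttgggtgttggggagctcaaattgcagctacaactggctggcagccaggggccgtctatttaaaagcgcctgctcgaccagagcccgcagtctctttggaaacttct

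The TATA box was searched as TATAAA, the GC box as GGGCGG, the AP-1 site as TGANTCA, the STAT site as TTCNNNGAA and the hypoxia response core as ACGTG, and no motif contains another. Of 32817 promoter windows of the same length, 12.4% held the TATA box, 32.7% the GC box, 6.75% the AP-1 site, 7.01% the STAT site and 16.6% the hypoxia response core. One match, TGAATCA, lay 37 bases before the start in the Igf1 window. It lies inside the gene interval given above, so bases before the start of that interval were not searched. The windows of Igfbp3 and Igfbp5 held no match to these letters. With no match in Igfbp5 no motif could be shared, and nothing about why Igf1 and Igfbp5 varied together is read from this. For the other members, the Igfbp4 window held a TATA box 28 bases before the start, Igf1r held 2 GC boxes, and Igfbp7 held 4 GC boxes and 1 hypoxia response core. Igfbp6 held a TATA box on the opposite strand 148 bases before the start. Igfbp2 has 2 windows, one with 3 GC boxes and 2 overlapping hypoxia response cores and one with an AP-1 match, TGAGTCA, 39 bases before the start. A match is a run of letters, not a site shown to be bound.

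Levels are given as normalized CPM, the deposited read counts of a gene relative to the library's effective size after TMM scaling. The libraries held 46371577 to 96759833 counts, with a median of 72413343. A gene was called when edgeR's quasi-likelihood test gave a Benjamini-Hochberg adjusted p-value below 0.05 over all tested genes and an absolute log2 fold change above 1. Values after ± are the SD for levels and the standard error (SE) for log2 fold changes. Libraries fell into sets that the labels do not name. Mir6236, annotated as a microRNA gene, had 75.3 to 94.7 normalized CPM in the d6 tumors and 69.3 to 191 in untreated d10 replicates 1 to 3, but 2.06 and 2.10 in untreated d10 replicates 4 and 5 and at most 0.260 in every d14 tumor. The treated d10 tumors had 2.97 to 18.2. Reads of 2 lengths from 2 instruments were used, and which library was run on which is not given in the sources used here. The paper reports a batch effect between sequencing projects for some genes and removed those genes, a filter that was not applied here. Changes of the untreated tumors from d6 or d10 to d14 and the Mir6236 difference between libraries therefore cannot be told apart. From d6 to d10 the comparison can be made within the libraries with high Mir6236. Both d14 groups were alike in Mir6236. The treated d10 tumors lay between the 2 parts of the untreated d10 group. The treatment difference at d10, and the interaction that uses it, therefore cannot be told apart from this difference between libraries. Of 6 mesothelium and mesothelioma markers Pdpn was at or below 3 counts in every library, and the summed level of the list lay between 768 and 1643 normalized CPM.

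Igf2 had almost no counts. It had 0 to 3 counts in each library and 14 counts in all, with 0 in the 3 d6 tumors, and it was not tested. Of its 5723 exon bases 3596 are shared with Gm49394 on the same strand, which had 0 counts in every library. Reads in the shared bases may have been assigned to neither gene, which was not tested, so the Igf2 counts speak for the 2127 bases that are not shared.

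Compared per kb of exon, the binding protein transcripts were more abundant than the ligand and the receptor. Igfbp4 was highest in every group, with group means between 152 and 220 CPM per kb. Igfbp7 followed, with means between 88.9 and 152 CPM per kb, and Igfbp3 (20.5 to 90.4), Igfbp6 (45.9 to 63.8) and Igfbp5 (12.6 to 45.4) came next. In untreated d14 tumors Igfbp3 (90.4 ± 20.3 CPM per kb, SD, n = 3) and Igfbp7 (88.9 ± 8.41) were within their spread. Igf1 (3.21 to 8.68 CPM per kb over the group means) and Igf1r (4.46 to 7.22) were lower and near each other, and Igfbp2 (0.384 to 3.81) was the lowest of the 8 tested members in all groups but untreated d6, where it lay between Igf1 and Igf1r within their spread.

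**Figure D1:**
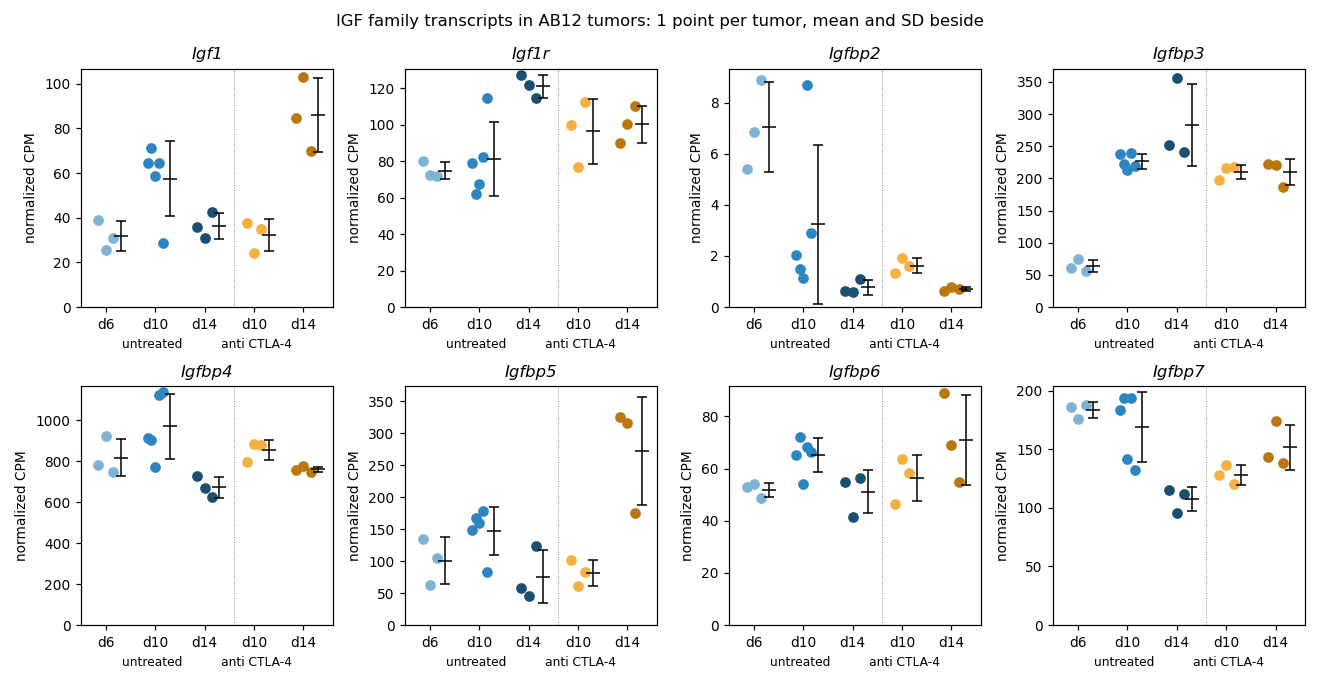
Normalized CPM (y axis, from 0) of the 8 tested members in every tumor, by group (x axis: untreated d6, d10 and d14, then anti CTLA-4 treated d10 and d14). Points are single tumors, and the bar beside them is the mean with the SD. Igfbp3 is lowest in the 3 d6 tumors, at 56.9 to 74.4, and Igf1 and Igfbp5 have their highest values in anti CTLA-4 treated d14 tumors.

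The course of the untreated tumors was followed first, to describe the family from the early to the advanced phase. Igfbp3, the main IGF carrier of the circulation and a gene with IGF-independent effects on growth, was the only member called between d6 and d10. This holds with all 5 d10 tumors in the fit. With d10 replicates 1 to 3 alone Igf1 and Igfbp2 were called as well. Igfbp3 had 61.0, 74.4 and 56.9 normalized CPM in the d6 tumors and 238, 222, 212, 240 and 220 in the d10 tumors. Every d10 tumor exceeded every d6 tumor, and no tumor of either group lay between 74.4 and 212 normalized CPM. The log2 fold change was 1.85 ± 0.11 (SE), or 3.59-fold. With untreated d10 replicates 1 to 3 alone, which share the high Mir6236 of the d6 tumors, it was 1.83, and with replicates 4 and 5 alone 1.86. In the d14 tumors Igfbp3 stood at 252, 356 and 241 normalized CPM, all above the d10 tumors though by little for the lowest, and the change from d10 (log2 0.32 ± 0.14) was not called. From d6 to d14 the rise was 2.16 ± 0.17, or 4.48-fold.

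Igfbp2, a binding protein of embryonic and tumor tissue, took the opposite course at a much lower level. The d6 tumors had 5.38, 6.83 and 8.89 normalized CPM and the d14 tumors 0.619, 0.593 and 1.10, which do not overlap. Igfbp2 was called lower at d14 than at d6, with a log2 fold change of -3.16 ± 0.30, or 8.95-fold lower. The d10 tumors spanned the range between, with 2.04, 1.49, 1.12, 8.67 and 2.89 normalized CPM. The fourth stood apart and was as high as the d6 tumors. Without it the change from d6 to d10 was called (log2 -1.86 against -1.09 ± 0.57 with it), and that from d10 to d14 was called as well (-1.3 against -2.08 ± 0.68). The latter was also called without d10 replicate 3 (-2.29). With d10 replicates 1 to 3 alone the change from d6 was -2.16 and called, and that to d14 was -1.0 and not called. With replicates 4 and 5 alone the change from d6 was -0.27 and not called, and that to d14 was -2.91 and called. Summed adipocyte markers were also highest of the d10 tumors in replicate 4, at 13.4 normalized CPM against 5.69 to 9.14 in the others, and so were endothelial (154 against 77.9 to 115) and T cell markers (162 against 114 to 142). The other lists were highest in other d10 tumors: fibroblast, macrophage and pancreas acinar in replicate 2, and pericyte and smooth muscle in replicate 1. Mesothelium was highest in replicate 5, and liver and skeletal muscle in replicate 3. The part of these cell types in the Igfbp2 value was not tested.

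In the ligand and Igfbp5, the d10 tumors were the higher group. Igf1 had 38.9, 25.6 and 30.8 normalized CPM at d6, 64.7, 71.1, 58.6, 64.4 and 28.7 at d10, and 36.0, 30.7 and 42.5 at d14. Igfbp5, a binding protein of matrix and of connective tissue cells, had 135, 63.0 and 105 at d6, 149, 168, 159, 179 and 83.8 at d10, and 57.8, 45.5 and 123 at d14. In both genes 4 of the 5 d10 tumors lay above every d6 and d14 tumor, and replicate 5 lay among them. Neither was called between d6 and d10 (log2 0.88 ± 0.27 for Igf1 and 0.57 ± 0.28 for Igfbp5) or between d10 and d14 (-0.66 ± 0.25 and -0.98 ± 0.33). Without replicate 5 the Igf1 change from d6 became 1.04 and the Igfbp5 change to d14 became -1.12, and both were called. With d10 replicates 1 to 3 alone they were 1.05 and -1.07, both called. With replicates 4 and 5 alone they were 0.56 and -0.82, neither called. Without d14 replicate 3 the Igfbp5 change to d14 was -1.51 and called.

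Igf1r and Igfbp7 moved by less than the fold threshold, in opposite directions. The receptor had 80.1, 72.5 and 72.1 normalized CPM at d6 and 127, 122 and 114 at d14, with no overlap and a log2 fold change of 0.71 ± 0.08. Its d10 tumors, with 79.2, 62.2, 67.5, 82.6 and 115, covered the d6 range and reached the lowest d14 tumor. Igfbp7, which is also known as a product of tumor vessels and senescent cells, had 186, 176 and 188 normalized CPM at d6, 183, 193, 142, 194 and 133 at d10 and 115, 96.0 and 112 at d14. The d14 tumors were below all others untreated, with a log2 fold change of -0.75 ± 0.09 from d6. Igfbp4, the most abundant member, was at 748 to 922 normalized CPM at d6, 770 to 1139 at d10 and 625 to 726 at d14, and its log2 fold changes were 0.27 from d6 to d10 and -0.53 from d10 to d14. Igfbp6, which prefers IGF2, kept within 41.6 and 72.1 normalized CPM over the 11 untreated tumors.

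Of the 8 members tested 1 was called higher from d6 to d10, where 7.45% of all tested genes were called in either direction. From d10 to d14 none was called by edgeR (7.23% of all genes), and 1 was by DESeq2, namely Igfbp2. At an unadjusted p under 0.05 edgeR had 8 of 8 members and 36.8% of all tested genes. From d6 to d14, 1 was called higher and 1 lower (19% of all genes). The median log2 fold change of the members was 0.31, -0.59 and -0.13 in the 3 comparisons, beside 0.03, -0.04 and 0.01 over all tested genes. These comparisons share tumors, and with the members chosen as described nothing is read from the counts.

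**Figure D2:**
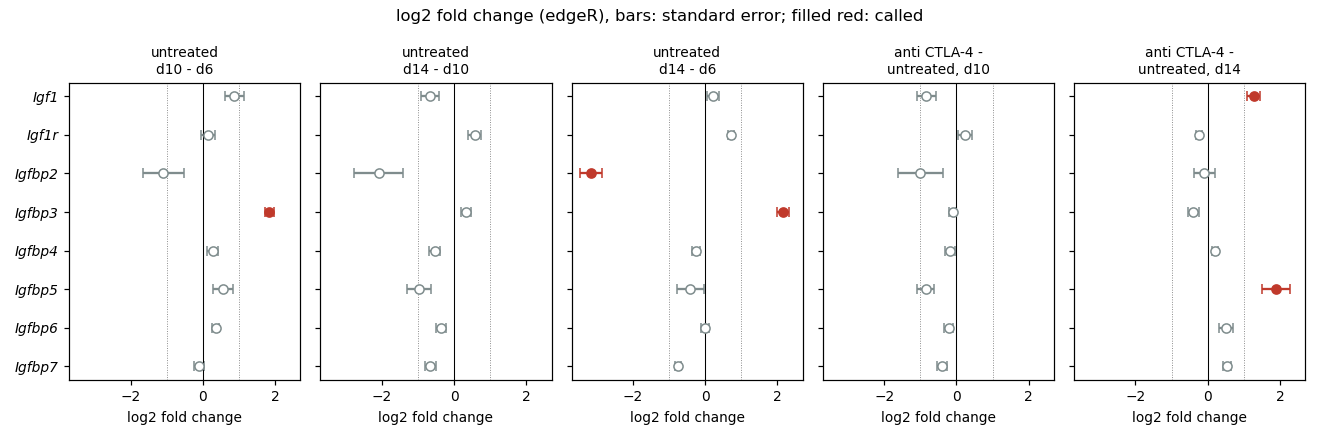
The log2 fold change of each tested member (x axis) in 5 comparisons, with bars for the standard error and dotted lines at a log2 fold change of 1 in either direction. Filled red points mark called members, namely Igfbp3 and Igfbp2 over time and Igf1 and Igfbp5 after anti CTLA-4 at d14, and open grey points mark members that were not called.

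Together these changes altered the make-up of the binding protein transcripts more than their sum. Summed over the 6 Igfbp genes the level was 425 ± 15.9 CPM per kb at d6 (SD, n = 3), 517 ± 54.3 at d10 (n = 5) and 391 ± 8.38 at d14 (n = 3). Of this sum Igfbp3 made up 4.81% ± 0.507 at d6, 14.1% ± 1.04 at d10 and 23.1% ± 5.23 at d14. The d6, d10 and d14 ranges did not overlap. Igfbp7 went the other way, from 35.8% ± 2.53 at d6 to 22.8% ± 2.08 at d14, with 21.4% to 30.2% in the d10 tumors. Igfbp2 made up 0.901% ± 0.250 at d6 and 0.107% ± 0.0416 at d14, and Igfbp4 stayed the largest part throughout.

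**Figure D3:**
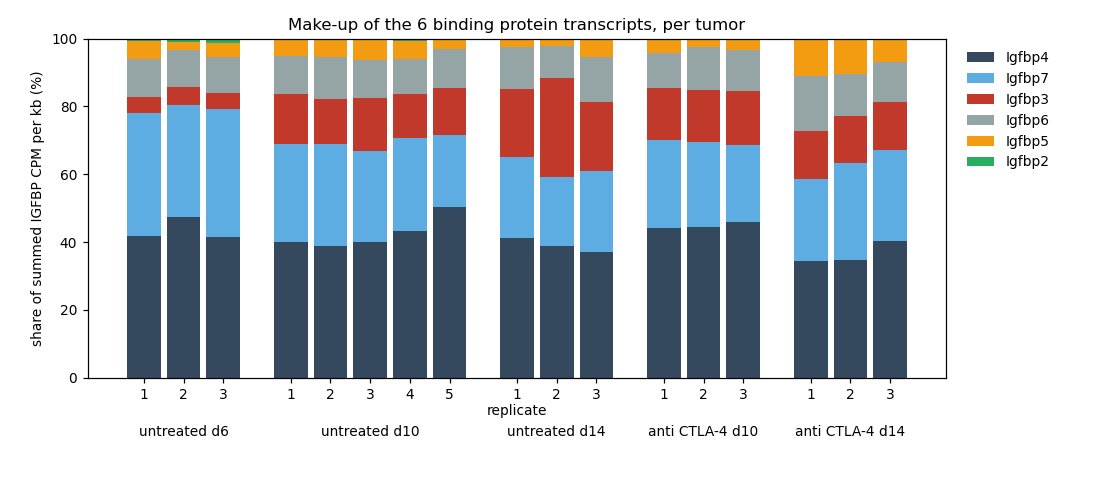
Share of each of the 6 binding protein transcripts in their summed CPM per kb (y axis, percent), 1 bar per tumor, with the replicate number under each bar and the group below. The Igfbp3 share grows from d6 through d10 to d14 in untreated tumors and is 13.9% to 14.3% in the treated d14 tumors, in which Igfbp5 has its largest share.

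Treated and untreated tumors of the same day were then compared, to describe the family under CTLA-4 blockade. At d10 no member was called by edgeR or by DESeq2, and 0.0174% of all tested genes, 3 in number, were called by edgeR. At an unadjusted p under 0.05 edgeR had 3 of 8 members and 13.5% of all tested genes. Igf1 had 37.5, 24.2 and 35.1 normalized CPM in treated d10 tumors, below 4 of the 5 untreated d10 tumors, with a log2 fold change of -0.83 ± 0.27. Igfbp5 had 101, 61.0 and 82.7, also below the same 4 untreated tumors, with -0.86 ± 0.24. Untreated replicate 5 lay among the treated tumors in both genes, and without it both were called at -1.0 each, while 115 genes were called in all. With untreated d10 replicates 1 to 3 alone the log2 fold changes were -1.0 for Igf1 and -0.95 for Igfbp5, and with replicates 4 and 5 alone -0.54 and -0.70. Neither part matched the treated d10 tumors in Mir6236, so treatment and this difference between libraries cannot be told apart at d10. The other log2 fold changes at d10 were between -0.40 (Igfbp7) and 0.24 (Igf1r), apart from Igfbp2 at -1.0 ± 0.61, whose direction turned (0.07) with untreated d10 replicates 1 to 3 alone.

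At d14 the direction for Igf1 and Igfbp5 was upward, and these were the 2 members called, both higher (11.5% of all tested genes were called). Igf1 had 84.9, 103 and 70.0 normalized CPM in treated d14 tumors against 36.0, 30.7 and 42.5 in untreated d14 tumors. The lowest treated tumor was well above the highest untreated one, and the log2 fold change was 1.27 ± 0.17, or 2.41-fold. Igfbp5 had 326, 317 and 175 normalized CPM against 57.8, 45.5 and 123, with a log2 fold change of 1.89 ± 0.39, or 3.70-fold. Its groups were also apart, with the third tumor of each group nearest the other. In both genes the lowest treated d14 tumor lay just below the highest untreated d10 tumor (70.0 against 71.1 for Igf1, 175 against 179 for Igfbp5). Without untreated d14 replicate 1 the Igfbp5 change was 1.73 and not called.

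The remaining members differed less between the d14 groups. Igfbp7 was at 144, 174 and 138 normalized CPM in treated tumors, above all 3 untreated tumors, with a log2 fold change of 0.53 ± 0.12. Igfbp3, at 222, 220 and 186, was below the 3 untreated tumors by 0.40 ± 0.15 on the log2 scale. Igf1r had 90.2, 101 and 110 normalized CPM, just under the lowest untreated tumor (114), and a log2 fold change of -0.24 ± 0.09. Igfbp4 was higher by 0.21 ± 0.08 without overlap, whereas the groups overlapped for Igfbp6 (0.51 ± 0.19) and Igfbp2 (-0.09 ± 0.30). The median log2 fold change of the 8 members was 0.36, beside -0.004 over all tested genes. As a share of the 6 binding protein transcripts, Igfbp5 was 9.43% ± 2.21 in treated and 3.24% ± 1.85 in untreated d14 tumors (SD, n = 3 each), and Igfbp3 14.1% ± 0.192 and 23.1% ± 5.23.

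The treatment difference at d14 was set against that at d10 in 1 model with an interaction term, in which 11.8% of all tested genes were called. The difference of the log2 fold changes was 2.09 ± 0.37 for Igf1 and 2.73 ± 0.49 for Igfbp5, both called, and 0.91 ± 0.20 for Igfbp7, below the fold threshold. How far the injection schedules of the 2 treated groups differed is not known from the sources used here. The treated and untreated d10 tumors also differed in Mir6236. With untreated d10 replicates 1 to 3 alone the differences were 2.27 for Igf1 and 2.84 for Igfbp5. With replicates 4 and 5 alone they were 1.8 and 2.58.

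Genes of other cell types moved with Igf1 and Igfbp5 at d14. Of 7 fibroblast markers 5 were called higher in treated d14 tumors (Col1a1, Col1a2, Dcn, Lum and Pdgfra), and their summed level was 3708 to 5658 normalized CPM against 1640 to 2947 in untreated tumors. Of 6 macrophage markers 4 were called higher (sums of 1206 to 1474 against 580 to 785), and of 5 pericyte and smooth muscle markers 2 were, Des and Myh11 (55.9 to 65.6 against 28.3 to 35.4). T cell markers, with Cd6 and Cd8b1 called higher of 4, summed to 123 to 133 against 42.8 to 78.4, and endothelial markers, with Vwf called higher of 6, to 153 to 188 against 95.3 to 112. Plin1 of the adipocyte list and Tnnt3 of the skeletal muscle list were called higher as well, at summed levels of at most 9.77 and 1.42 normalized CPM. The mesothelial genes Wt1 (log2 fold change 1.54 ± 0.28) and Lrrn4 (2.19 ± 0.62) were called higher, although the summed mesothelium list, at 768 to 861, was lower than in untreated d14 tumors (1137 to 1263). The part of these cell types in the Igf1 and Igfbp5 values was not tested. In bulk tumors, fewer cells of a type and less RNA per cell cannot be told apart.

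Treated d14 tumors also held pancreas acinar transcripts. Their summed level was 2641 normalized CPM in replicate 1, 3.64 in replicate 2 and 905 in replicate 3, against 0.619 to 1.74 in untreated d14 tumors. Igf1 was highest in replicate 2, the tumor with the least pancreas signal. Igfbp5 was near equal in replicates 1 and 2 (326 and 317 normalized CPM), and Igfbp6 was highest in replicate 1 (89.1 against 69.1 in replicate 2). Igf1, Igfbp5 and Igfbp6 were each lowest in replicate 3. The part of the pancreas signal in these values was not tested. With replicate 2 as the only treated d14 tumor, an alternative chosen after these values were seen, the log2 fold changes were 1.53 for Igf1 and 2.11 for Igfbp5. With 1 treated tumor the spread came from the untreated tumors alone, and that neither was called, as were only 2 genes in all, says nothing about the pancreas signal.

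Igf1 and Igfbp5 varied together over the 17 tumors, with Pearson r = 0.911 on log2(CPM + 1), a description over libraries that share groups and depth. The next pairs were Igf1r with Igfbp7 (r = -0.769) and Igfbp2 with Igfbp3 (r = -0.715). Among 9549 genes whose mean reached 10 normalized CPM, those most like Igf1 were Bicc1 (r = 0.960), Tshz2 (0.954) and Cyp1b1 (0.939), and those most like Igfbp5 were Ptprc (0.949), which encodes the leukocyte antigen CD45, Arhgap4 (0.939) and Sulf2 (0.931). For Igfbp3 they were Tmem184a (0.964), Ube2ql1 (0.936) and Nmnat2 (0.935). For Igfbp7 they were Sod3 (0.948), Ly86 (0.939) and Lst1 (0.928), and for Igf1r Prpf8 (0.961), Utp20 (0.950) and Acaca (0.948). For Igfbp2 the gene most like it was Penk (0.940). The likeness was weakest for Igfbp4 (Smarcd2, 0.911) and Igfbp6 (Mmp23, 0.878).

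**Figure D4:**
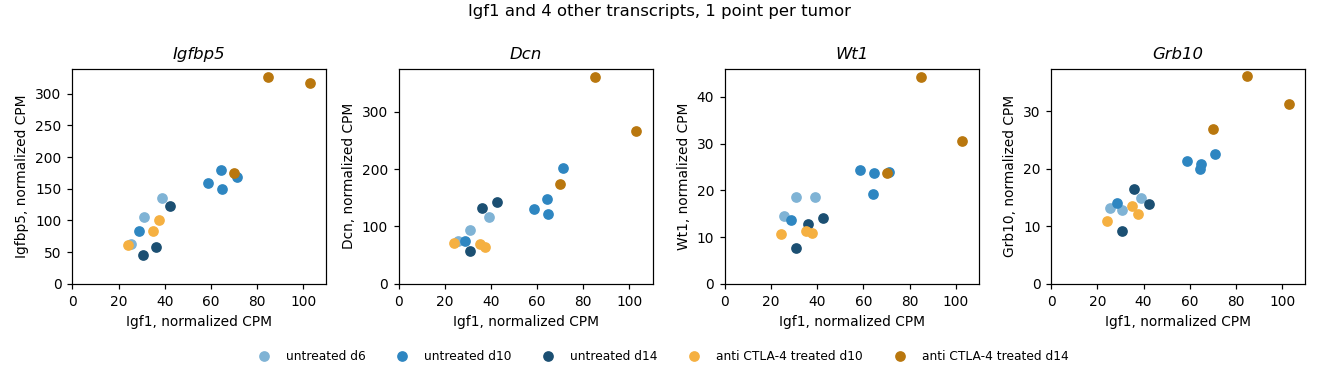
Normalized CPM of Igf1 (x axis) against Igfbp5, the fibroblast gene Dcn, the mesothelial gene Wt1 and the receptor adaptor Grb10 (y axes), 1 point per tumor, colored by group. The genes on the y axes were chosen after their values were seen. Treated d14 tumors had Igf1 between 70.0 and 103. The lowest of them, at 70.0 for Igf1 and 175 for Igfbp5, lay within reach of the untreated d10 tumors, which went up to 71.1 and 179.

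The other genes of the pathway were taken from 5 lists, chosen with earlier results of these data known, and their adjusted p-values carry that choice. Of 8 further ligand, receptor and carrier genes only Igf2r, Insr and Insrr were expressed enough to be tested. Igfbp1 had counts in 2 libraries only, treated d14 replicates 1 and 3, with 3 and 2 counts. These were the tumors with high pancreas acinar sums. Their summed liver markers were 5.08 and 1.43 normalized CPM, against 0.163 in treated d14 replicate 2. The part of other tissues in the Igfbp1 counts was not tested. Igf2r had 25.8, 25.6 and 23.8 normalized CPM at d6 and 60.1, 59.2, 54.1, 76.9 and 60.9 at d10, and it rose without overlap (log2 fold change 1.34 ± 0.12, adjusted p = 0.000235, edgeR). It was also higher in treated d14 tumors, at 106, 109 and 99.3 against 43.8, 33.8 and 61.2 (1.22 ± 0.20, adjusted p = 0.00656). Insrr, the insulin receptor-related receptor, rose from d10 to d14 (1.37 ± 0.23, adjusted p = 0.00757).

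H19, the non-coding transcript imprinted opposite to Igf2 at the same locus, was detected in every tumor, whereas Igf2 had at most 3 counts per library. Those Igf2 counts speak only for its exon bases not shared with Gm49394. H19 had 0.770 to 1.23 normalized CPM at d6 and 1.57 to 3.81 at d10 and rose by 1.5 ± 0.32 on the log2 scale (adjusted p = 0.0123, edgeR). In treated d14 tumors it was at 6.43, 6.26 and 3.59 against 1.84, 2.85 and 1.15 in untreated ones, a log2 fold change of 1.52 ± 0.36 (adjusted p = 0.0178). Igf2bp3, which binds Igf2 mRNA among others, rose from d6 to d10 (1.32 ± 0.31, adjusted p = 0.0168) and fell from d10 to d14 (-1.37 ± 0.31, adjusted p = 0.0174). The H19 call at d10 was lost without d6 replicate 1 or 3, its d14 call without untreated replicate 1 or treated replicate 1 or 2, and the Igf2bp3 calls without d6 replicate 2 or 3 and without d14 replicate 1 or 2.

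Of 6 genes for proteases that cleave IGFBPs and for their inhibitors, Pappa, whose product cleaves IGFBP4, rose from d6 to d14 (log2 fold change 1.11 ± 0.20, adjusted p = 0.00208, edgeR). Htra3, a secreted serine protease, was higher in treated than untreated d14 tumors (1.07 ± 0.24, adjusted p = 0.0150), a call lost without untreated replicate 2 or treated replicate 1 or 2. The other 4 were called in none of the comparisons. In IGF1R signaling 18 of 19 genes were tested, and Grb10, an adaptor that restrains insulin and IGF receptor signaling, was the only one called. It had 36.1, 31.3 and 26.9 normalized CPM in treated and 16.5, 9.22 and 13.8 in untreated d14 tumors (1.29 ± 0.21, adjusted p = 0.00687). Its treatment difference at d14 exceeded that at d10 by 1.97 ± 0.28 (adjusted p = 0.00254, edgeR). Of the other pathway genes this interaction was also called for H19 (2.34 ± 0.51), Igf2bp3 (1.59 ± 0.41), Htra3 (1.52 ± 0.30) and Insrr (-1.12 ± 0.33). None of these interactions can be told apart from the Mir6236 difference between the d10 libraries. Irs1, a docking protein of the receptor, had a log2 fold change of -0.80 ± 0.18 from d6 to d10 and Irs2 one of 0.67 ± 0.15, both below the fold threshold. They were not alone in this, as Tsc1 (0.955 ± 0.105) and Mtor (0.773 ± 0.07) rose from d6 to d14. In that comparison 11 of the 18 genes had an unadjusted p under 0.05 by edgeR, beside 58% of all tested genes. None of the 5 tested genes of the growth hormone axis was called by edgeR in any comparison, and 0 to 2 of them had an unadjusted p under 0.05, as had 13.5% to 58% of all tested genes.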

How the data were processed

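Libraries were made with the KAPA RNA HyperPrep kit. The authors aligned paired-end reads to GRCm38 with TopHat2 2.0.14, kept unique alignments and obtained counts per Gencode vM21 gene from HTSeq. The deposited values are raw read counts per gene. Whether counting used strand is not given in the sources used here, so reads of the 85 exon bases that Igfbp7 shares with Polr2b on the other strand cannot be assigned. Of 55450 genes 20211 had no count.

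Counts were tested in R 4.3.3 with edgeR 4.0.16 (filterByExpr, TMM, quasi-likelihood F test, only the compared groups in a fit, Benjamini-Hochberg adjustment). The SE was derived from the log2 fold change and its F statistic. The procedure was tested on simulated data. Conditions and replicate numbers came from the labels, with 1 mouse per library, and depth limits precision little for the 8 tested members, which had at least 46 counts per library. Replicates differed by more than sampling noise (chi-square per gene 18.5 to 268 over 22 pairs).

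Members, gene lists and tests were chosen with earlier results of these data known. Named genes were the 9 members, called genes of the pathway lists (at most 4 per list and comparison), Igf2r, Igfbp1, H19 and up to 3 genes most like each member, of which some are not reported here. Marker genes, the Irs genes, Tsc1 and Mtor were named after their values were seen. Alternatives were DESeq2 1.42.0, library size without TMM, other filters, all 5 groups in a fit, parts of the untreated d10 group, each replicate left out, and a replicate block.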

Additional observations from a re-analysis of the deposited data

Results flagged for a closer look

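Igfbp2 in the untreated d10 tumors had a highest value of 8.672 normalized CPM in replicate 4, whose gap to the next tumor was 0.766 of the range of the 5 tumors, above Dixon's critical value. This rule was applied to the untreated d10 group for each of the 8 tested members, at the highest and the lowest tumor. Groups of 3 tumors were not screened. Chance flags about 1 in 20 groups screened. The interaction term of edgeR, which tests the treatment difference at d14 against that at d10, gave log2 differences of 2.09 for Igf1, 2.73 for Igfbp5 and 0.91 for Igfbp7. In Igf1 and Igfbp5 all 3 treated d14 tumors were above all 3 untreated ones, and the 3 treated d10 tumors were below 4 of 5 untreated ones. The members were chosen with results of these tumors known, so these differences are a description and no independent evidence.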

How the results depend on the processing

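The log2 fold changes recomputed under the alternatives were those of the members in all comparisons and of pathway genes where they had been called. Of these, 960 kept their direction and side of the threshold, 21 passed it newly, 29 lost it and 17 changed sign. For the members alone the numbers were 727, 21, 3 and 17. The pathway genes, counted only where called, could not pass the threshold newly. From d6 to d10, 3 members were called with a replicate block or with untreated d10 replicates 1 to 3 only, namely Igf1, Igfbp2 and Igfbp3. With a replicate left out the count was 1 to 2. From d10 to d14, 1 was called with DESeq2, all genes with at least 1 count, all 5 groups in a fit, the replicate block or either part of the d10 group, and 0 to 1 with a replicate left out. At d10, treated against untreated, 1 was called with the block and 0 to 2 with a replicate left out. At d14 the count was 0 with treated replicate 2 only and 1 to 2 with a replicate left out.

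Same-numbered tumors did not pair: of 30 pairs 9 had deviations that correlated above 0.1 (r from -0.301 to 0.234), so the block describes only a shared number.

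The sign changed for Igf1r from d6 to d10 (-0.09 with the block, -0.08 with d10 replicates 1 to 3, and -0.02 to 0.21 with a replicate left out) and at d10 under treatment (-0.04 with untreated replicates 4 and 5). It changed for Igfbp6 from d6 to d14 (0.08 without TMM, 0.05 with all genes, 0.01 with at least 10 counts, and -0.06 to 0.13 with a replicate left out). It changed for Igfbp2 at d10 under treatment (0.08 with the block, 0.07 with replicates 1 to 3), at d14 (0.09 with treated replicate 2 only, and -0.26 to 0.28 with a replicate left out, where it turned without untreated replicate 3 or treated replicate 1, at 0.01) and in the interaction (-0.16 with the block, -0.17 with replicates 1 to 3). None of these was a called value, and the cause was not tested.

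Over all genes, the number called between treated and untreated d10 tumors moved from 3 to between 0 and 1210, with 223 by DESeq2, 1152 with untreated replicates 1 to 3 and 1210 with the block, and that from d10 to d14 from 1277 to 821 with at least 10 counts, 2001 with all 5 groups in a fit, 1969 with d10 replicates 1 to 3, and 281 to 1528 with a replicate left out (281 without untreated d14 replicate 2). From d6 to d10 it moved from 1257 to 2794 with d10 replicates 4 and 5, and to 810 and 819 without d6 replicate 1 and 3. From d6 to d14 it moved from 3270 to 2151 with at least 10 counts. Between the d14 groups it moved from 2072 to 2 with treated replicate 2 only and 1172 to 2851 with a replicate left out, and in the interaction from 2196 to 771 and 1315 to 2598. The groups hold 3 to 5 tumors, and changes below the fold threshold were not called.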
